A study of Mus musculus with 18 samples.

Results

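The comparison described here sets 3 cerebellum arrays of homozygous MPI 118Q/118Q knock-in mice against 3 arrays of their wild-type littermates, which is 6 of the 18 arrays of the series. The arrays were chosen by genotype label alone, and each of 18193 genes was represented by 1 probe set, the brightest of those carrying a single gene symbol. The series was made to study spinocerebellar ataxia type 6 and holds 3 mouse lines, named 118Q, Ctm (a knockout) and 11Q (another knock-in), with wild-type littermates for every line. All mice were of strain C57BL/6, the age given for the 118Q line was 6 weeks, and sex was not used here, nor was the age of the homozygous MPI 11Q/11Q knock-in mice and their wild types (3 arrays each) that are set beside them at the end. The labels give no more on the allele than its name, and say only that the arrays are separate samples. The p-values of genes measure the spread between samples within groups, pooled over all 18 arrays of the series. All RNA had an integrity number above 5.0 and precision is limited by having 3 arrays per group.

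Cacna1a encodes the pore subunit of Cav2.1, the P/Q-type calcium channel that carries most of the calcium current of Purkinje cells. Spinocerebellar ataxia type 6 is caused by a longer run of glutamines in the C-terminal part of this protein, and the 118Q and 11Q lines are named for the number of glutamines. Purkinje cells are the sole output neurons of the cerebellar cortex, each driven by granule cell axons and a climbing fibre, and they handle large calcium loads with pumps, buffers and internal stores. Microglia are the resident immune cells of the brain.

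Values are log2 expression values from RMA, changes are log2 differences (118Q knock-in minus wild type) followed by limma's standard error (SE), and a gene is called where its Benjamini-Hochberg adjusted p over all 18193 genes is below 0.05. Of these genes 280 were called, or 1.54% of those tested, with 147 higher in knock-in cerebellum (0.808%) and 133 lower (0.731%). Rises were the smaller changes, with a median of 0.52 and a maximum of 1.26, whereas falls were larger, with a median size of 0.71 and a maximum of 1.62. A change of at least 1.5-fold was reached by 95 of the called falls and 52 of the called rises. In 279 of the 280 called genes the knock-in and wild-type arrays did not overlap, against 18.1% of all genes. The calls used the same values, so this follows largely from the selection and is no further support. Over all genes the median change was 0.040, with quartiles at 0.17 and -0.086, and 10681 changes were positive. The calls depended on single arrays. Refits without knock-in array 1, 2 or 3 gave 941, 7 and 3 calls, and refits without wild-type array 1, 2 or 3 gave 68, 240 and 2 calls. A fit on the 6 arrays alone gave 0 calls by limma, against 280 in the fit over all 18 arrays. At an unadjusted p below 0.05 the fit over all 18 arrays had 2937 genes, or 16.1%.

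**Figure D1:**
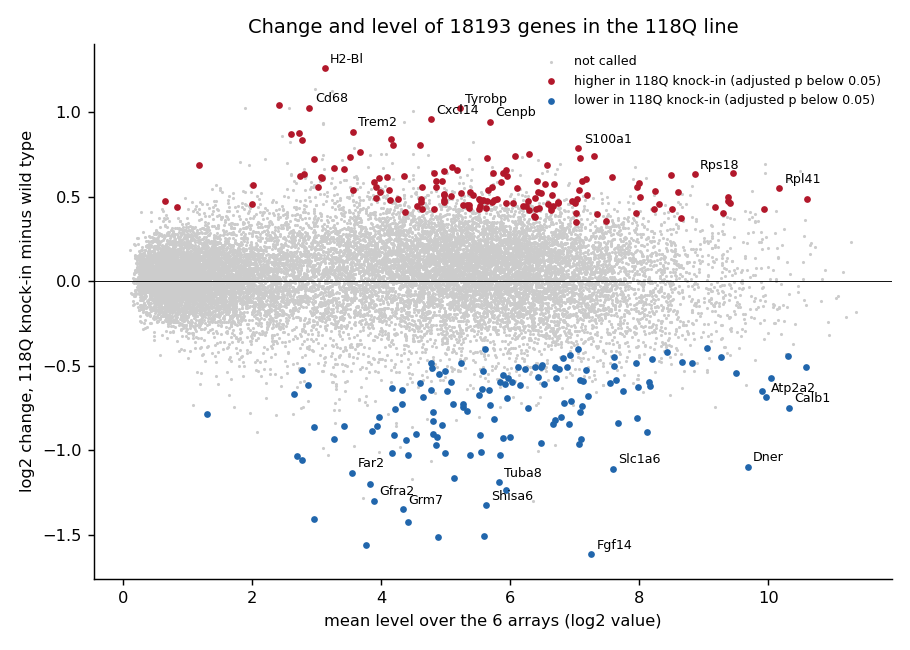
Log2 change (118Q knock-in minus wild type, vertical axis) against the mean log2 level over the 6 arrays (horizontal axis) for 18193 genes. Red points are the 147 genes called higher in the knock-in and blue points the 133 called lower, with falls reaching 1.62 in size and rises 1.26.

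Over the called genes as a whole, knock-in array 1 lay nearest the wild types. Over the 147 called rises its median deviation from the wild-type mean was 0.43, against 0.57 on knock-in array 2 and 0.56 on array 3. Over the 133 called falls it was -0.43 on knock-in array 1, -0.89 on array 2 and -0.80 on array 3. The RNA quality measure, taken as the log2 value at the 3' end minus that at the 5' end in the array controls for Gapdh and beta-actin, averaged, was 0.473, 0.459 and 0.415 in knock-in arrays, against 0.496, 0.538 and 0.614 in wild-type arrays. The groups did not overlap in this measure (two-sided exact permutation p = 0.1, the smallest that 3 against 3 arrays allow). With it as a covariate limma called 37 genes. Ttr, the choroid plexus transthyretin gene, was at 11.79, 11.41 and 8.63 in knock-in arrays, against 11.90, 6.27 and 11.83 in wild-type arrays, so that 1 low array fell in each group (exact p = 0.9 for the mean of the choroid genes used). The tissue label was checked against marker lists. The median log2 value was 8.95 in the granule cell list, 8.03 in the Purkinje cell list, 1.94 in the forebrain list and 1.37 in the hindbrain list, with the limit that probe sets of different genes differ in brightness.

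Cacna1a itself stood at 5.62, 5.79 and 5.53 in knock-in arrays, against 6.04, 5.51 and 6.25 in wild-type arrays. The groups overlapped and the gene was not called (change -0.29, SE 0.15, adjusted p = 0.34). The knock-in alters the coding repeat, so the level of this probe set does not check the labels.

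Genes of microglia stood higher in the knock-in. Trem2, a surface receptor of microglia for lipids and cell debris, had 4.19, 3.87 and 3.95 in knock-in arrays, against 3.04, 3.31 and 3.00 in wild-type arrays. Every knock-in array lay above every wild type, and Trem2 was 1 of 2 genes called in all 6 refits that left out an array (change 0.89, SE 0.11, adjusted p = 0.0015). A dimmer probe set of Trem2, of level 1.25, had a change of -0.070 (limma, adjusted p = 0.89 over all probe sets). The rise of Trem2 thus rests on 1 probe set. Tyrobp, the adaptor through which Trem2 signals, had 6.10, 5.29 and 5.80 in knock-in arrays, against 4.54, 5.01 and 4.56 in wild types. Its groups were also apart, with knock-in array 2 the lowest of the mutants (change 1.03, SE 0.17, adjusted p = 0.013). Cd68, a glycoprotein of macrophage lysosomes, averaged 3.40 ± 0.46 in knock-in arrays and 2.37 ± 0.36 in wild-type arrays (SD, n = 3 each). The change was 1.03 (SE 0.23, adjusted p = 0.034). Cd52, a small surface glycoprotein of leukocytes, changed by 0.87 (SE 0.16, adjusted p = 0.020). Cyba, a subunit of the phagocyte NADPH oxidase, changed by 0.56 and Laptm5, a lysosomal membrane protein of blood cells, by 0.54 (adjusted p = 0.022 and 0.044). Other probe sets of Laptm5 had changes of 0.27, -0.070, -0.025 and -0.0052, none called, so its rise rests on 1 probe set.

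Of 28 measured genes in the microglia list, these 6 rose (21.4%, against 0.808% of all genes) and none fell. In the list 24 changes were positive, against 58.7% of all genes, with a median of 0.47 against 0.040 over all genes. Without knock-in array 1, 2 or 3 the list had 5, 3 and 1 called rises, and without wild-type array 1, 2 or 3 it had 3, 6 and 1. The complement genes C1qa and C1qb had changes of 0.55 and 0.66, and the Fc receptor Fcgr3 one of 0.62, with adjusted p = 0.10, 0.063 and 0.088. Clec7a, a receptor for fungal glucans, read 3.54 on knock-in array 1, 1.58 on array 2 and 2.07 on array 3, against 1.40, 1.48 and 1.24 in wild types (change 1.03, adjusted p = 0.094). Knock-in array 1 was far above the others for this gene. It was also the highest for Trem2, Tyrobp, Cd68 and Cd52, and over the whole list the mean level was 3.96, 3.61 and 3.83 in knock-in arrays 1, 2 and 3, against 3.35, 3.47 and 3.31 in wild types. Markers of resting microglia gave mixed values. P2ry12, a purine receptor, had a change of 0.51 (adjusted p = 0.17), Cx3cr1, the fractalkine receptor, 0.35 (adjusted p = 0.30), Tmem119 0.051 (adjusted p = 0.92), and Csf1r, the receptor for colony-stimulating factor, -0.025 (adjusted p = 0.97). The direction of the last pair was not stable between settings. In bulk tissue, fewer or more cells of a type cannot be told apart from less or more RNA per cell.

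Among other genes of immunity and stress, H2-Bl, an MHC class I gene of the blastocyst group, had 3.57, 3.47 and 4.21 in knock-in arrays, against 2.81, 1.85 and 2.81 in wild types. Knock-in arrays were all above wild types (change 1.26, SE 0.25, adjusted p = 0.024), but near-identical MHC copies can share its probes, so the gene assignment is uncertain. It was the single called gene of 18 in the antigen presentation list, where 14 changes were negative, the median was -0.065 and the lowest change was -1.30. Among 23 MHC genes it was also the single called one, with 12 positive and a median of 0.051. Cxcl14, a chemokine, had 5.37, 5.13 and 5.23 in knock-in arrays, against 3.96, 4.76 and 4.13 in wild types. The knock-in arrays lay close together and above the others (change 0.96, SE 0.23, adjusted p = 0.045). A further Cxcl14 probe set of similar level had a change of 0.41 and was not called (limma, adjusted p = 0.27 over all probe sets). Tnfrsf12a, the receptor of the cytokine TWEAK, changed by 0.75 (SE 0.14, adjusted p = 0.018), Il20rb, a receptor chain for cytokines of the interleukin-20 family, by 0.59 (adjusted p = 0.021), and Bcl2l11, a BH3-only protein that promotes cell death, by 0.84 (adjusted p = 0.048). Il20rb was the single called gene of 73 interleukins and their receptors (1.37%), and Bcl2l11 that of 22 in the cell death list (4.55%). Over all genes 1.54% were called, so the interleukin count was near that share. The complement list (14 measured), the lysosome list (28) and the phagocytosis and lipid handling list (19) had no called gene by limma. At an unadjusted p below 0.05 they had 4, 3 and 7 genes, against 16.1% of all genes, and their medians were 0.11, -0.0023 and 0.17.

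Genes of protein synthesis had many small positive changes. Ribosomal protein mRNAs are a class whose transcripts are known to begin with a pyrimidine tract, through which their translation is tuned to growth signals. Rps27 had 4.33, 4.34 and 4.15 in knock-in arrays, against 3.68, 3.69 and 3.61 in wild types. The arrays of each genotype lay within a narrow range and apart from the other (change 0.61, SE 0.097, adjusted p = 0.010). This probe set is dim, since the median level of the 48 cytosolic ribosomal protein genes was 8.94. Rps18 had 8.95, 9.32 and 9.24 in knock-in arrays, against 8.44, 8.60 and 8.58 in wild types, again with no overlap (change 0.63, SE 0.10, adjusted p = 0.011). Rpl11, which also binds the p53 regulator Mdm2, averaged 9.62 ± 0.27 in knock-in arrays and 9.12 ± 0.065 in wild types (SD, n = 3 each; change 0.50, adjusted p = 0.038). Their start regions from RefSeq (GRCm38.p6), 45 bases before to 30 after the annotated start, are shown because they hold a pyrimidine run at or near the start, with the run of 8 or more C or T in capitals.
Rps27, chr3:90213619-90213693, minus strand: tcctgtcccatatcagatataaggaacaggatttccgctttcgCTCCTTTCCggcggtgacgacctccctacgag
Rps18, chr17:33955636-33955710, minus strand: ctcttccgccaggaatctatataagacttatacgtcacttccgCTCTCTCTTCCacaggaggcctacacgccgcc
Rpl11, chr4:136053364-136053438, minus strand: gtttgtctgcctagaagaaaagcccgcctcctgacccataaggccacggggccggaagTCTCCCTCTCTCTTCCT
In Rps27 and Rps18 the run spans the annotated start, from position -2 to 7 and from -2 to 9, whereas in Rpl11 it lies downstream of the annotated start, at 14 to 30.

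Of 48 measured cytosolic ribosomal protein genes 8 rose (16.7%, against 0.808% of all genes) and none fell. The 8 were Rps18, Rps27, Rpl41, Rps19, Rpl11, Rps15, Rps2 and Rpl37a, with changes between 0.43 and 0.63. In this family 46 changes were positive, against 58.7% of all genes, and the median was 0.30. All knock-in arrays were above all wild types in 30 genes, against 12% of all genes. Ribosomal protein genes have many processed copies in the genome, so single assignments are uncertain. Without knock-in array 1, 2 or 3 the family had 24, 0 and 1 called rises, and without wild-type array 1, 2 or 3 it had 2, 2 and 0. A pyrimidine run overlapping positions -5 to 15 was found on the coding strand in 20 of 42 family members with a RefSeq promoter (47.6%), in 3 of the 8 that rose, and in 15.9% of all 14452 genes with one. Among all called rises 14.9% held it, and among called falls 21.8%. The motifs GAGGAAGT, GGAAGT (which lies within GAGGAAGT) and TAGGTCA were also searched, on both strands of the window from 250 bases before to 50 after the start. GAGGAAGT was in 1.75% of called rises and 3.47% of all genes, GGAAGT in 32.5% of called rises and 29% of all genes, and TAGGTCA in 2.97% of called falls and 2.57% of all genes. These searches were chosen after the gene values had been seen and are descriptions only.

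Genes hosting small nucleolar RNAs, which guide the modification of ribosomal RNA, were picked out after their values were seen. Of 16 measured, 6 rose and 13 were positive, against 0.808% and 58.7% of all genes, with a median of 0.45. Gas5 had 8.20, 8.20 and 8.32 in knock-in arrays, against 7.71, 7.68 and 7.67 in wild types, with little spread in either group (change 0.56, SE 0.13, adjusted p = 0.037). Zfas1, Snhg10, Snhg3, Snhg8 and Snhg7 had changes of 0.66, 0.56, 0.53, 0.51 and 0.41. Eef1d, a subunit of the elongation factor that recharges eEF1A, averaged 7.44 ± 0.038 in knock-in arrays and 6.93 ± 0.095 in wild types (SD, n = 3 each; change 0.51, adjusted p = 0.023). Other probe sets of Eef1d, of levels 6.04, 2.80 and 1.47, had changes of 0.11, 0.14 and -0.13. None was called, so the rise of Eef1d rests on 1 probe set. Trmu, which modifies mitochondrial transfer RNAs, changed by 0.56 (adjusted p = 0.021). The family of translation initiation factors had no called gene by limma among 47. At an unadjusted p below 0.05 it had 9, against 16.1% of all genes, and its median was 0.072.

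Nuclear genes of mitochondria were positive more often than all genes, of which 58.7% were positive and 0.808% were called higher. Of 76 mitochondrial ribosomal protein genes 3 rose (3.95%), Mrpl14, Mrps18c and Mrpl57, with changes of 0.51, 0.46 and 0.43. In this family 69 were positive, with a median of 0.19. Of 86 genes of the respiratory chain and ATP synthase 3 rose (3.49%), and 71 were positive with a median of 0.22. Ndufa6, of complex I, had 8.63, 8.79 and 8.73 in knock-in arrays, against 8.23, 8.35 and 8.29 in wild types, with no overlap (change 0.43, SE 0.086, adjusted p = 0.026). Ndufb9, also of complex I, changed by 0.40 and Uqcr10, of complex III, by 0.43. Timm8b, a chaperone of the intermembrane space, was the single called gene of 23 for mitochondrial import (change 0.53, adjusted p = 0.026). Without knock-in array 1 there were 25 called rises in the respiratory family and 12 in the mitochondrial ribosomal family. Without knock-in array 2 or 3 or wild-type array 3 neither family had a called rise, and without wild-type array 1 they had 0 and 1.

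Other rises stood outside these groups. Cenpb, the centromere protein that binds alphoid satellite DNA, had 6.02, 6.09 and 6.35 in knock-in arrays, against 5.16, 5.52 and 4.95 in wild types. All knock-in arrays were above all wild types (change 0.95, SE 0.14, adjusted p = 0.010). S100a1, a calcium sensor of muscle and neurons, had 7.24, 7.66 and 7.44 in knock-in arrays, against 6.78, 6.87 and 6.33 in wild types (change 0.79, SE 0.14, adjusted p = 0.015). It was the single called gene of 15 S100 genes (6.67%, against 1.54% of all genes). Of these 15 genes 13 were positive, against 58.7% of all genes. Folh1, the peptidase that cleaves the neuropeptide NAAG and releases glutamate, changed by 0.88 (SE 0.16, adjusted p = 0.020). Drap1, a corepressor of transcription, changed by 0.74 (adjusted p = 0.015). Tppp3, a protein that bundles microtubules, changed by 0.58 and Kif1c, a kinesin motor, by 0.62, each with adjusted p = 0.017. Further rises were Olfml1 with 0.84, Tmod4, which caps actin filaments, with 0.69, Zcchc24 with 0.69, Myl6, a myosin light chain, with 0.65, Tsc22d4 with 0.58, Cyhr1 with 0.55 and Zfand2a with 0.45, with adjusted p between 0.013 and 0.024. Other probe sets of Cyhr1 had changes between 0.033 and 0.34, none called.

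**Figure D2:**
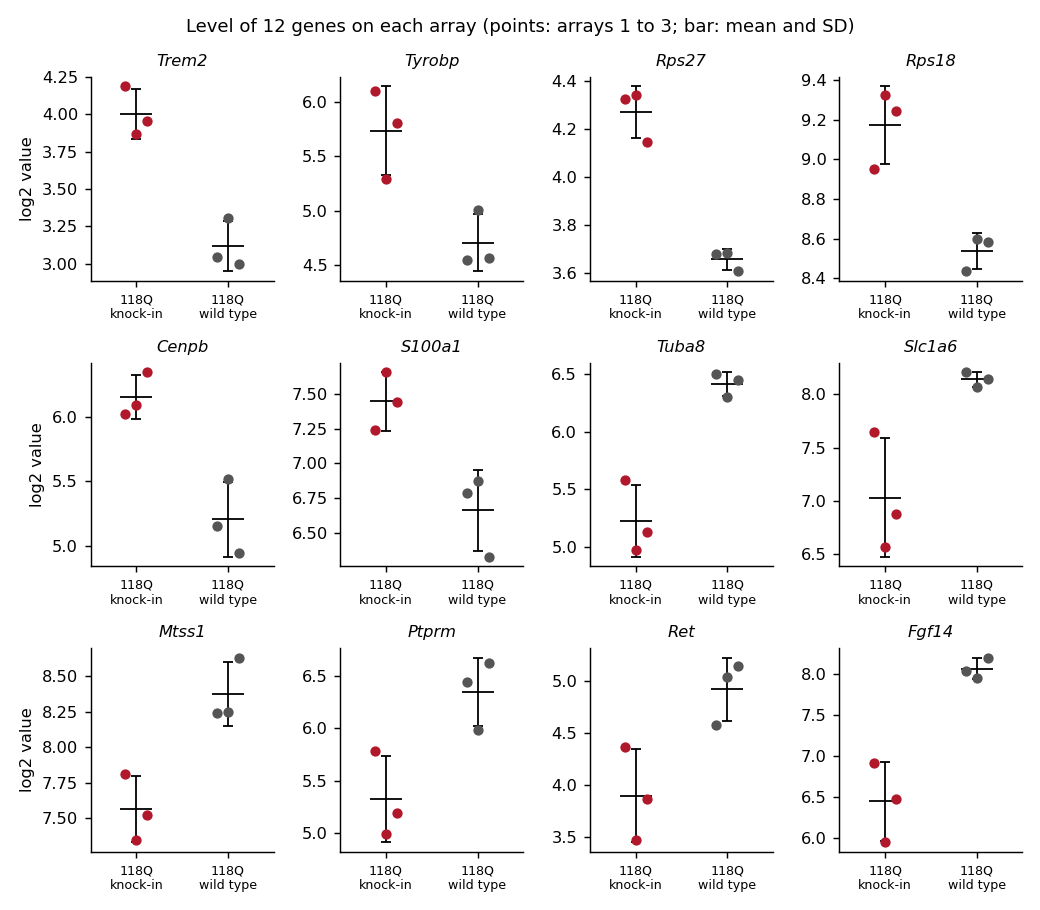
Log2 value (vertical axis, scaled to each gene) of 12 called genes on the 3 knock-in arrays (red, left) and the 3 wild-type arrays (grey, right), with the mean and SD as bars. The groups do not overlap in any gene shown, which holds for 279 of the 280 called genes. In the 6 genes that fell knock-in array 1 is the highest of the knock-in arrays.

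Genes of Purkinje cells were the list with the largest share of called falls among the 27 lists and 56 families examined. The called falls were 10 of 21 measured members, or 47.6%, against 0.731% of all genes. None was called higher, the median was -0.65, and 15 had all knock-in arrays below all wild types, against 6.11% of all genes. Tuba8, an alpha-tubulin outside this list, was the gene with the smallest p and the other one called in all 6 refits without an array. It had 5.58, 4.97 and 5.13 in knock-in arrays, against 6.50, 6.30 and 6.45 in wild types, so that the highest knock-in array was well below the lowest wild type (change -1.19, SE 0.14, adjusted p = 0.0013). A further probe set of Tuba8 fell by 1.15 (adjusted p = 0.026 over all probe sets). Slc1a6, the glutamate transporter EAAT4 of Purkinje cell spines, had 7.65, 6.57 and 6.88 in knock-in arrays, against 8.21, 8.07 and 8.14 in wild types. The wild types were within a narrow range and the knock-ins spread below it (change -1.11, SE 0.18, adjusted p = 0.010). Dner, a Notch ligand that Purkinje cells present to Bergmann glia, had 9.90, 8.59 and 8.91 in knock-in arrays, against 10.26, 10.06 and 10.37 in wild types (change -1.10, SE 0.21, adjusted p = 0.020). Stk17b, a kinase related to death-associated kinases, averaged 6.59 ± 0.23 in knock-in arrays and 7.55 ± 0.22 in wild types (SD, n = 3 each; change -0.96, adjusted p = 0.010).

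The other called Purkinje genes were Car8, a carbonic anhydrase relative that binds the IP3 receptor, with -0.65, Bcl11a, a transcription factor, with -0.86, and Ppp1r17, an inhibitor of protein phosphatases phosphorylated by the cGMP-dependent kinase, with -0.89. Kcnma1, the large-conductance calcium-activated potassium channel, changed by -0.85, Itpka, a kinase of IP3, by -0.60, Atp2a3, a calcium pump of the endoplasmic reticulum, by -0.84 and Calb1, the buffer calbindin, by -0.75. Calb1 read 10.50 on knock-in array 1, 9.44 on array 2 and 9.89 on array 3, against 10.61, 10.68 and 10.78 in wild types (SE 0.18, adjusted p = 0.041). Knock-in array 1 was close to the wild types and arrays 2 and 3 were lower. The list did not fall as a block. Pcp2, the L7 gene confined to Purkinje cells in cerebellar cortex, had 10.62, 10.74 and 10.79 in knock-in arrays, against 10.62, 10.72 and 10.33 in wild types, with overlap and a change of 0.16 (SE 0.10, adjusted p = 0.49). Foxp2, a transcription factor, had a change of -0.76 that was not called (adjusted p = 0.065). Without knock-in array 1, 2 or 3 the list had 14, 0 and 0 called falls, and without wild-type array 1, 2 or 3 it had 3, 5 and 0. With the RNA quality measure as a covariate 2 members were called.

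Some calcium pumps and 1 calcium channel subunit outside that list also fell. Atp2a2, the SERCA2 pump, had 9.85, 9.43 and 9.57 in knock-in arrays, against 10.36, 10.16 and 10.39 in wild types, with no overlap (change -0.69, SE 0.11, adjusted p = 0.010). The other 5 probe sets of Atp2a2 also had negative changes, and those with levels near 8.9 changed by -0.57 and -0.65 and were called. Atp2b2, the plasma membrane pump PMCA2, changed by -0.42 (SE 0.099, adjusted p = 0.041). With Atp2a3 of the Purkinje list these were the called genes among 14 P-type calcium and sodium pumps, of which 11 were negative. Cacna2d2, the auxiliary subunit that is mutated in ducky mice, had 7.11, 6.45 and 6.67 in knock-in arrays, against 7.57, 7.40 and 7.48 in wild types. It was the single called gene among 24 calcium channel subunits (4.17%, against 1.54% of all genes), with a change of -0.74 (SE 0.13, adjusted p = 0.017). Of the 24 subunits 8 were positive, with a median of -0.077. In the list from the receptor mGluR1 to calcium release, Plcb3, a phospholipase C, was called beside Car8 and Itpka of the Purkinje list, 3 of 20, and the median was -0.20.

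Some genes of spike generation and of inhibitory tone were among the falls. Fgf14, an intracellular partner of sodium channels whose loss causes ataxia, had 6.92, 5.95 and 6.48 in knock-in arrays, against 8.04, 7.96 and 8.20 in wild types. No array overlapped and the change was the largest called fall (change -1.62, SE 0.34, adjusted p = 0.029). Its probe sets disagreed, however, since another bright one fell by 1.72 (adjusted p = 0.022 over all probe sets) while one of level 5.84 had a change of -0.15 (adjusted p = 0.78). Scn8a, the sodium channel Nav1.6, changed by -0.50 and Scn4b, the subunit tied to resurgent current, by -0.73 (adjusted p = 0.043 each). These 3 genes were the called members of 15 sodium channels and partners, and the same genes were the called members of the 18 in the axon initial segment list. Slc32a1, the vesicular transporter of GABA and glycine, had 7.04, 5.90 and 6.22 in knock-in arrays, against 7.15, 7.15 and 7.27 in wild types. Knock-in array 1 was near the wild types (change -0.81, SE 0.20, adjusted p = 0.048). It was the single called gene of the 12 in the interneuron list (8.33%, against 1.54% of all genes), where 11 were negative and the median was -0.46. The mean level of the list was 6.584, 5.81 and 6.148 in knock-in arrays, against 6.512, 6.665 and 6.705 in wild types. Knock-in array 1 thus lay within the wild-type range, and with 1 array left out the list had 0 to 5 called falls. Slc12a5, the chloride exporter KCC2, changed by -0.45 (adjusted p = 0.038) and Kcna6, a Kv1 channel, by -0.51 (adjusted p = 0.031). Their families were near the share of all genes, with 2.31% of 347 solute carriers and 2.38% of 84 potassium channels called. The medians of these families were 0.0095 and -0.014.

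Among receptors and scaffolds of synapses, single genes fell by a large amount. Grm7, a presynaptic metabotropic glutamate receptor, had 4.27, 3.05 and 3.68 in knock-in arrays, against 4.74, 4.84 and 5.46 in wild types, with no overlap (change -1.35, SE 0.24, adjusted p = 0.017). It was the single called gene of 6 metabotropic receptors, of which 5 were negative, with a median of -0.29. An unadjusted p below 0.05 was reached by 3 of them, against 16.1% of all genes. Shisa6, an auxiliary protein of AMPA receptors, had 5.52, 4.72 and 4.64 in knock-in arrays, against 5.94, 5.92 and 6.99 in wild types (change -1.33, SE 0.26, adjusted p = 0.024). It was the single called gene of 25 postsynaptic scaffold genes (4%, against 1.54% of all genes), whose median was -0.020. None of 17 ionotropic glutamate receptor subunits and none of 15 GABA-A receptor subunits was called by limma. At an unadjusted p below 0.05 there were 7 and 1, against 16.1% of all genes, and the medians were -0.0095 and 0.022. The ionotropic changes went both ways, between -0.97 and 0.57. Grik1, a kainate receptor subunit, had a change of -0.97 (adjusted p = 0.075). Cttnbp2, a spine scaffold that binds cortactin, changed by -0.91 and Dpp10, a partner of Kv4 channels, by -0.82 (adjusted p = 0.013 and 0.010).

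Both parts of a growth factor receptor complex fell. Gfra2, the coreceptor that binds neurturin, had 3.99, 2.86 and 2.88 in knock-in arrays, against 4.33, 4.36 and 4.92 in wild types (change -1.30, SE 0.26, adjusted p = 0.026). Ret, the tyrosine kinase that signals for it, had 4.37, 3.47 and 3.86 in knock-in arrays, against 4.58, 5.04 and 5.15 in wild types (change -1.03, SE 0.22, adjusted p = 0.031). In both genes knock-in array 1 was the nearest to the wild types and the groups did not overlap. They were the 2 called genes of 17 for neurotrophins and the GDNF family (11.8%, against 1.54% of all genes), whose median was 0.031. Other probe sets of Gfra2 had changes of -0.53, 0.092, -0.053 and -0.22, none called, so its fall rests on 1 probe set.

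Cytoskeletal and signalling regulators were also among the falls, and the falls named here are only part of the larger ones. Mtss1, a membrane-bending protein of dendritic spines, had 7.82, 7.35 and 7.53 in knock-in arrays, against 8.24, 8.25 and 8.63 in wild types, with no overlap (change -0.81, SE 0.13, adjusted p = 0.010). All 6 of its probe sets had negative changes. Ptprm, an adhesive receptor phosphatase, had 5.78, 4.99 and 5.19 in knock-in arrays, against 6.44, 5.99 and 6.62 in wild types (change -1.03, SE 0.17, adjusted p = 0.012). Dgkh, a diacylglycerol kinase, changed by -1.01 and Plxdc1, a plexin-domain membrane protein, by -1.03 (adjusted p = 0.013 and 0.010). Pde5a, the phosphodiesterase of cGMP, changed by -0.82, Myo5a, the motor that carries endoplasmic reticulum into Purkinje cell spines, by -0.60 and Far2, which reduces fatty acyl-CoA to alcohols, by -1.13 (adjusted p = 0.024, 0.036 and 0.013). Dgkq, another diacylglycerol kinase, ran the other way, with a change of 0.62 (adjusted p = 0.031). Further falls were Strip2 with -1.23, Akap2, an anchor of protein kinase A, with -1.16, Slc35f1 with -1.02, Coch, the matrix protein cochlin, with -0.93, Atrnl1 with -0.92, Psd2, an exchange factor for Arf proteins, with -0.72 and Zdhhc14, a palmitoyltransferase, with -0.59, with adjusted p between 0.015 and 0.022. The cytosolic chaperones Hspa4 and Hsp90aa1 changed by -0.57 and -0.54 (adjusted p = 0.018 and 0.046). They were the called genes of 19 in their list (10.5%, against 1.54% of all genes). Another probe set of Hspa4 fell by 0.79 (limma, adjusted p = 0.022 over all probe sets), while one of level 5.85 had a change of -0.089.

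Several vascular and matrix genes fell. Flt1, the VEGF receptor of endothelial cells, had 4.38, 3.83 and 4.06 in knock-in arrays, against 5.16, 4.67 and 5.14 in wild types, with no overlap (change -0.90, SE 0.15, adjusted p = 0.012). Abcb1a, the drug efflux pump of the blood-brain barrier, had 4.92, 4.04 and 4.11 in knock-in arrays, against 5.26, 4.97 and 5.54 in wild types. Knock-in array 1 was just under the lowest wild type (change -0.90, SE 0.21, adjusted p = 0.038). These were the 2 called genes of 17 in the endothelial and pericyte list, where all 17 changes were negative with a median of -0.39. Without knock-in array 1, 2 or 3 this list had 7, 0 and 0 called falls, and without wild-type array 1, 2 or 3 it had 1, 4 and 0. The basement membrane genes Col4a1, Col18a1 and Lamb1 changed by -0.75, -0.61 and -0.73, and Fn1, fibronectin, by -0.82 (adjusted p = 0.037, 0.037, 0.037 and 0.023). Their families as a whole were mixed. Of 42 collagens 2 were called (4.76%) and 15 were positive, with a median of -0.059. Of 39 laminins and integrins 1 was called (2.56%) and 21 were positive, with a median of 0.034. Over all genes 1.54% were called. All 12 genes of the meninges and fibroblast list were negative with a median of -0.25, and none was called by limma. At an unadjusted p below 0.05 there were 3, against 16.1% of all genes. Bgn had a change of -0.51 and Lum one of -0.49 (adjusted p = 0.14 and 0.12).

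Lists of the other cell types held no called gene by limma. Gabra6, the GABA-A subunit of granule cells, had 10.36, 10.46 and 10.50 in knock-in arrays, against 10.36, 10.54 and 10.52 in wild types, with overlap (change -0.029, adjusted p = 0.93, of either sign between settings). The granule cell list (15 measured) had a median of -0.029, the Bergmann glia and astrocyte list (16) one of 0.062 and the oligodendrocyte list (18) one of 0.13, with 3, 4 and 1 genes at an unadjusted p below 0.05. Mobp, a myelin protein, had a change of 0.64 (adjusted p = 0.082) and Ptprz1, a receptor phosphatase of glia, one of -0.54 (adjusted p = 0.050, just above the threshold). In the glucocorticoid response list all 15 changes were positive with a median of 0.52, and none was called, with 7 at an unadjusted p below 0.05. Its gene Mt1, metallothionein, had 11.02, 10.65 and 10.77 in knock-in arrays, against 9.98, 10.49 and 10.02 in wild types, with an adjusted p of 0.092. The immediate early list (19) had no called gene, 3 at an unadjusted p below 0.05 and a median of 0.33, with Junb at 0.72 (adjusted p = 0.078). At an unadjusted p below 0.05, 16.1% of all genes passed.

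**Figure D3:**
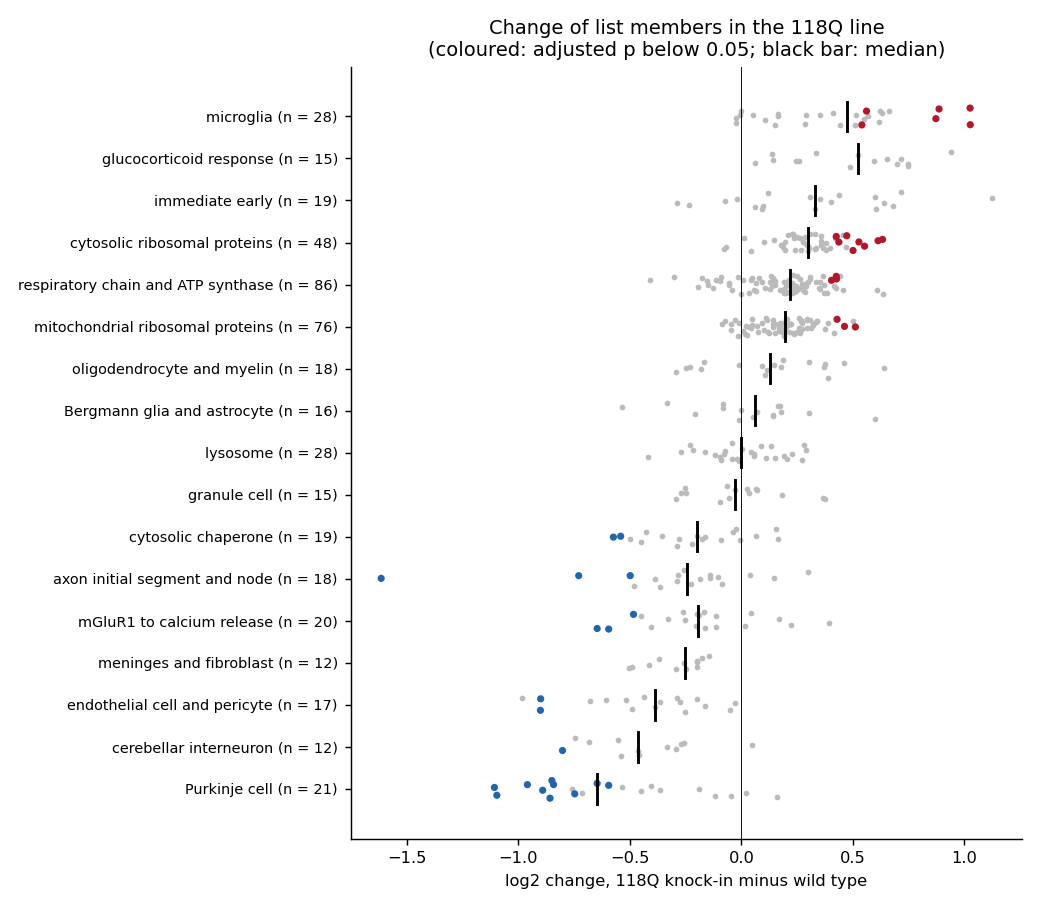
Log2 change (118Q knock-in minus wild type, horizontal axis) of each measured gene of 17 lists and families, with red for called rises, blue for called falls, grey for genes not called and a black bar for the median. The medians run from 0.52 in the glucocorticoid list and 0.47 in the microglia list to -0.65 in the Purkinje cell list.

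The change of genes went with their length. Gene span here is the distance from start to end of the gene, introns included, in the RefSeq table, known for 18032 genes. Called falls had a median span of 114.4 kb (n = 131), called rises one of 7.16 kb (n = 146), and all genes one of 20.33 kb. Split into 10 equal bins by span, the shortest genes (up to 3.35 kb) had a median change of 0.077 and the longest (from 118 kb) one of -0.075. The shortest bin held 37 called rises and 4 called falls, and the longest bin 2 called rises and 64 called falls. Long genes that fell included Grm7, Fgf14, Ptprm and Dner, and short genes that rose Rps27, Cenpb, Tyrobp and Trem2. In the brighter 50% of genes the medians lay further apart, with 0.19 in the shortest bin and -0.12 in the longest.

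Each array gave a value for this gradient, the median deviation of the longest bin minus that of the shortest, relative to the mean of the 18 arrays. It was -0.064, -0.148 and -0.085 in knock-in arrays, against 0.010, 0.023 and 0.111 in wild-type arrays. The groups did not overlap, and knock-in array 2 was the farthest from the wild types. The means differed by -0.147 (two-sided exact permutation p = 0.1, the smallest that 3 against 3 arrays allow). In the 11Q line the same difference was -0.060. The value also varied between wild-type groups, at 0.101, 0.071 and 0.218 in the 11Q wild types and -0.077, -0.022 and -0.088 in the Ctm wild types, so the Ctm wild types overlapped the 118Q knock-in arrays. The RNA quality measure moved with genotype too. With that measure as a covariate the median change of the longest bin minus the shortest was -0.152, and without it it was also -0.152. The median log2 level was 6.11 for called falls, 5.43 for called rises and 3.86 for all genes. The split by span was chosen after the values had been seen.

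**Figure D4:**
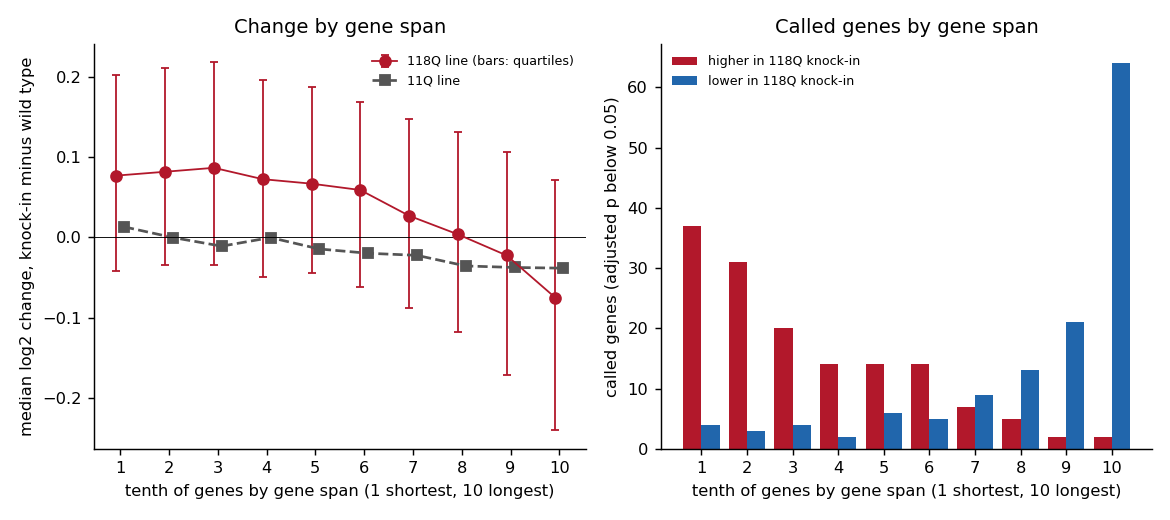
Left, the median log2 change (knock-in minus wild type) in 10 equal bins of genes ordered by gene span, for the 118Q line (red, bars give the quartiles) and the 11Q line (grey, dashed), and right, the number of called genes per bin. The 118Q medians go from 0.077 in the shortest bin to -0.075 in the longest, which holds 64 of the called falls.

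Other probe sets of the called genes gave a reading that had not been used for the calls. Of 369 such probe sets from 167 called genes 315 changed in the same direction, 25 were called in it and none was called in the opposite one. Among the 206 in the brighter 50% of probe sets, 195 had the same direction and 23 were called. They come from the same RNA, so they are no further replicates. Of the 280 called genes, 3 were called in none of the 6 refits that left out an array, 104 in 1, 124 in 2, 43 in 3 and 4 in 4. The 4 genes called in 4 refits were Cenpb, Rps27, Tyrobp and Cd52.

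The difference between the changes in the 118Q line and the 11Q line was tested in the same fit, to set the repeat against a knock-in of another length. By limma no gene was called in this difference (0 of 18193, smallest adjusted p = 0.142), while 1880 genes (10.3%) had an unadjusted p below 0.05. With array weights 75 genes were called, and without knock-in array 1 of the 118Q line 91. The 11Q line itself had 0 called genes by limma (998, or 5.49%, at an unadjusted p below 0.05, smallest adjusted p = 0.11). Differences with the smallest p were -1.13 (SE 0.19) for Tuba8, 0.91 (SE 0.16) for Kif1c, 0.85 (SE 0.15) for Trem2, 1.49 for Fhit and 0.85 for Nckap1l, each with adjusted p = 0.142. Tuba8 averaged 5.23 in 118Q knock-in arrays and 6.42 in their wild types, and 6.21 in 11Q knock-in arrays and 6.27 in theirs. Trem2 averaged 4.00 in 118Q knock-in arrays and 3.12 in their wild types, and 2.92 in 11Q knock-in arrays and 2.88 in theirs. In both genes the 11Q groups lay near each other. In the other 3 the 11Q change had the opposite sign, at -0.87 for Fhit, -0.39 for Nckap1l and -0.29 for Kif1c. None was called in the 11Q line by limma (adjusted p = 0.52, 0.76 and 0.88). Their changes in the 118Q line were 0.63, 0.46 and 0.62, where Fhit was not called (adjusted p = 0.11). Picking genes by the smallest p of the difference favours opposite signs, so these values are descriptions only.

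The 147 called rises had a median change of 0.52 in the 118Q line and of 0.0053 in the 11Q line, where 78 were positive. The 133 called falls had medians of -0.71 and -0.084, with 89 negative in the 11Q line. Since the genes were picked for their change in the 118Q line, these values describe them and test nothing. Gfra2 had the largest 11Q change among called genes, -0.75 against -1.30 in the 118Q line, and the adjusted p of its difference was 0.63. Cxcl14 had a change of -0.47 in the 11Q line, against 0.96 in the 118Q line (adjusted p of the difference = 0.20).

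**Figure D5:**
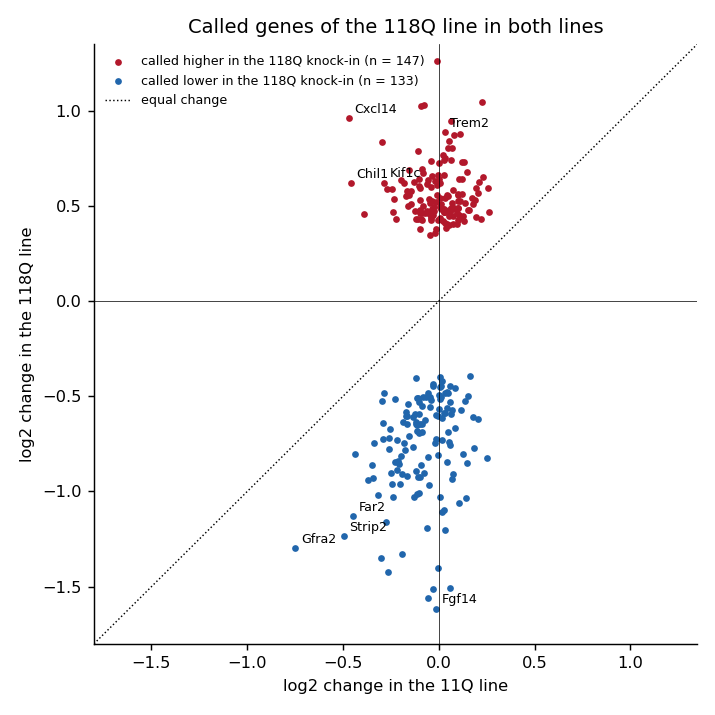
Log2 change in the 118Q line (vertical axis) against that in the 11Q line (horizontal axis), both knock-in minus wild type, for the 147 genes called higher (red) and the 133 called lower (blue) in the 118Q knock-in, with equal change as a dotted line. The 11Q changes centre on 0.0053 and -0.084, and Gfra2 is the farthest from 0 in that line.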

How the data were processed

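Total RNA from cerebellum was hybridised to Affymetrix mouse arrays, per the labels. The deposited log2 values are RMA summaries made by the authors, per the submitters' processing notes, with no version. The background step and zero point are not given in the sources used here, so changes of dim genes depend on them. The file holds 45101 probe sets, of which 34945 carry 1 gene symbol in the platform table, 10092 others do not and 64 are controls. The brightest probe set over all 18 arrays stood for each of 18193 genes, with no filter on low values.

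Changes were tested with limma 3.58.1 in R 4.3.3, with 1 mean per group over 18 arrays, eBayes with a constant prior (12 residual and 5.98 prior degrees of freedom), two-sided tests and Benjamini-Hochberg adjustment at 0.05. Array measures were compared by exact permutation. Spans and promoters came from RefSeq, GRCm38.p6. Whether the replicate numbers pair the arrays is not known. Deviations of same-numbered arrays correlated at -0.074, -0.097 and -0.00012, and those of other combinations at between -0.22 and 0.27. With 3 arrays per group these values cannot settle it.

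The comparison itself, 27 gene lists and 56 symbol families were chosen with earlier results of these data known. Of 548 list entries 486 were measured. Genes were named from the 25 rises and 25 falls of smallest p with groups apart, up to 6 called members per list (2 uncalled where none was called), up to 12 genes kept in most refits, the 5 smallest p of the 118Q minus 11Q difference and Cacna1a, of which the text gives part. Predicted loci, 22 of the called genes, were not named. Genes named beyond this rule were marker genes or are said to be picked after their values were seen. Lists received no set test. Alternatives covered probe set choice, dim genes, eBayes settings, array weights, normalisation, covariates, a replicate block, the arrays fitted, a fold minimum and the omission of each array.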

Additional observations from a re-analysis of the deposited data

How the results depend on the processing

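The 280 calls became 567 without the dimmer 50% of genes, 424 with trend and robust eBayes, 1740 with array weights, 1660 against 6 wild types, those of the 11Q line added, 147 with a fold minimum of 1.5, 37 with the RNA quality covariate and 0 with only the arrays of the comparison. Leaving out 1 array gave 2 to 941 calls. With the replicate number as a block, coded within each line after a block shared across lines had been seen, 70 genes were called. The numbers are not shown to pair the arrays. The 0 calls in the difference between the 118Q and 11Q lines became 75 with array weights and 4 with the choroid plexus covariate, and 0 to 91 with 1 array left out. The difference between the longest and shortest bin of genes by span, -0.152, was -0.310 without the dimmer 50%, and -0.175 to -0.124 with 1 array left out.

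Of 111 named genes that were called, none changed direction in any of the 18 alternatives that tested it (97 of them were tested without the dimmer 50%). This says little on stability, because many alternatives could hardly turn a sign. Leaving out an array cannot do so where the groups lie apart. Other eBayes settings, a fold minimum or a fit on the 6 arrays alone keep the same log2 change. The calls themselves were less stable. With array weights 111 remained called, with the block 44 and with the RNA covariate 23. Without knock-in array 2, knock-in array 3 or wild-type array 3, 6, 3 and 2 remained called. Among named genes not called, 3 of small change turned sign. Csf1r, -0.025 in the fit reported, read 0.13 as the mean of probe sets, 0.087 against 6 wild types and -0.080 to 0.045 with 1 array left out. Gabra6, -0.029 in the fit reported, read 0.093 as the mean of probe sets, 0.0063 with the RNA covariate and -0.087 to 0.011 with 1 array left out. Tmem119, 0.051 in the fit reported, read -0.053 to 0.23 with 1 array left out. The cause of these shifts was not tested.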
